A study of Homo sapiens with 6 samples.

Results

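The 10 genes described here control phosphorylation of the translation initiation factor eIF2alpha: the 4 eIF2alpha kinases (EIF2AK1 to EIF2AK4), the mitochondrial stress relay made of OMA1 and DELE1, and the eIF2alpha phosphatase with PPP1R15A, PPP1R15B, PPP1CA and its adaptor NCK1. They were chosen by name for this role from 62252 genes, with earlier results of these data known. Of the 62252 genes 26074 were tested, and all 10 were among those tested. Their mRNA was measured in K562 cells, a human erythroid leukemia line grown in suspension, after overnight treatment with 10 µM 21H7, a cell-permeable iron chelator (Chelator group), or with an equal volume of the solvent DMSO (DMSO group). Each group had 3 biological replicates, no gene was edited, and both groups grew in the same serum-containing medium. The comparison asked how the transcriptome responds to low iron availability.

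Phosphorylated eIF2alpha lowers general translation and favors translation of a few mRNAs such as that of ATF4, a program called the integrated stress response. Each kinase answers another kind of stress. HRI (EIF2AK1) is inhibited by heme and is abundant in erythroid cells, PKR (EIF2AK2) binds double-stranded RNA, PERK (EIF2AK3) senses unfolded proteins in the endoplasmic reticulum, and GCN2 (EIF2AK4) senses uncharged tRNA. Under some kinds of mitochondrial stress the protease OMA1 cleaves DELE1, which then binds and activates HRI. Whether cleavage by OMA1 is part of the signal under iron chelation was not tested here. The signal is ended by protein phosphatase 1, whose catalytic subunit (PPP1CA or a paralog) is brought to eIF2alpha by the inducible subunit PPP1R15A (GADD34) or the constitutive subunit PPP1R15B (CReP). NCK1 is an adaptor protein that has been tied to eIF2alpha dephosphorylation and to PERK. These activities are set largely by phosphorylation, cleavage and binding of the proteins, none of which mRNA levels measure.

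Both PPP1R15 genes carried, near their start sites, letters that factors of this response bind. In the RefSeq promoter windows (250 bases before to 50 after each start site, GRCh38.p14; 8 of 10 genes matched), PPP1R15A held TGACGTCA, the cyclic AMP response element that ATF and CREB factors bind, and PPP1R15B held TGATGNAA, the core of the composite site bound by ATF4 with a C/EBP partner. Both are shown 5′ to 3′ on the strand of the gene, with the matched letters in capitals, because they set the inducible and the constitutive phosphatase subunit side by side.
PPP1R15A, chr19:48872352-48872381, + strand: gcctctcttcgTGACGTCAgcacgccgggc
PPP1R15B, chr1:204412026-204412055, - strand: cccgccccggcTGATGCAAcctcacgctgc
The first match began 58 bases upstream of the RefSeq start site of PPP1R15A, which is also where its principal transcript PPP1R15A-201 starts. That stretch is 5′ UTR in the first exon of a longer transcript, PPP1R15A-202. The second match began 227 bases upstream of the start site of PPP1R15B. Of 35116 promoter windows, 1.85% held TGACGTCA and 3.62% held TGATGNAA on either strand. The shorter letters CCAAT, held by 34.6% of windows, occurred at EIF2AK2, EIF2AK3, DELE1, PPP1R15B and NCK1. ACGTG, the core of the hypoxia response element, held by 21.4%, occurred at EIF2AK2, EIF2AK3 and DELE1. The windows of EIF2AK4 and OMA1 held none of the 4 motifs. A match describes these letters only and is neither a bound site nor a cause of any change.

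The libraries held between 78615500 and 101094957 estimated counts. Values below are normalized counts, which are counts corrected for library size and for the average length of the transcripts in use. No library was a copy of another, since the chi-square per gene was 6.54 to 63.5 within a group and 219 to 327 between groups. DMSO replicate 2 stood apart from the other DMSO libraries, with a chi-square per gene of 63.5 and 44.3 against 8.52 between those. Its mitochondrial genes were at 4.42% of counts against 6.65 and 7.06%. Chelator replicate 1 stood apart from the other Chelator libraries by less, at 29.9 and 28.1 against 6.54 between those. All 9 erythroid markers examined were detected in all libraries (GATA1 at 151 to 178 TPM, a unit that divides counts by transcript length and scales every library to the same total). Of the 10 markers of other cell types, MS4A1 was at 0 in all libraries and ALB, APOA1 and KRT5 reached at most 0.233 TPM, while EPCAM (45.6 to 68.8 TPM) and CD3D (10.0 to 40.7 TPM) were expressed. Summed over a list, the erythroid markers were at 12509 to 13850 TPM in DMSO and 17606 to 18787 TPM in Chelator, with 4 higher and 3 lower of 9, and the others at 82.2 to 83.8 and 92.0 to 98.3 TPM, with 4 higher and 2 lower of 10. Their part in the results below was not tested. In RNA from whole cultures, fewer cells expressing a gene and less RNA per cell cannot be told apart. Tests below measure the spread between these 6 libraries.

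Of the 10 genes, 7 changed with chelation, in both directions. PPP1R15A rose 3.31-fold, EIF2AK3 rose by 34.9%, and PPP1R15B and DELE1 rose by less than 20%, whereas EIF2AK4, EIF2AK2 and OMA1 fell. By DESeq2's Wald test, 4 genes were higher at an adjusted p under 0.05, where the background over 24542 genes with an adjusted p was 19.5%, and 3 were lower, where it was 18.3%. EIF2AK1, PPP1CA and NCK1 did not pass. Without DMSO replicate 2 the counts were also 4 and 3. PPP1R15A was the 1 gene that also passed an absolute log2 fold change of 1, against 8.18% of all genes called higher. In 5 genes every Chelator library exceeded every DMSO library (25.5% of all genes), in 3 every Chelator library was lower (23.7%), and in EIF2AK1 and PPP1CA the groups overlapped. The median log2 fold change was 0.10 over the 10 genes and 0.016 over all genes. The backgrounds are over all genes, many with lower counts than these 10, so the counts are given beside them as descriptions.

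**Figure D1:**
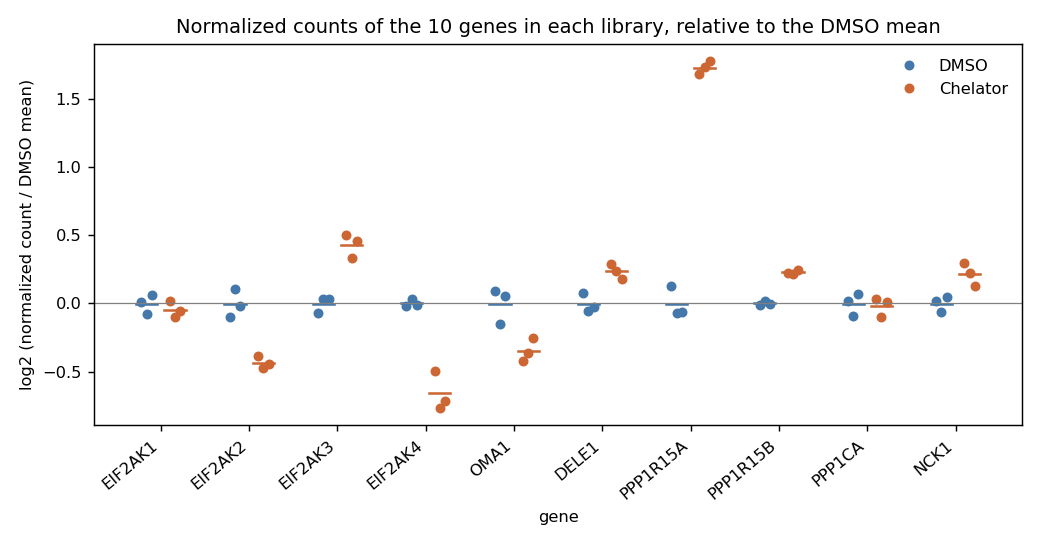
Normalized count of each gene in each of the 6 libraries, on a log2 scale relative to the gene's DMSO mean. Points are libraries and bars are the means of the 3 libraries of a group. PPP1R15A lies at 1.68 to 1.78 in Chelator, and the other 9 genes stay within 1 unit of their DMSO mean.

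Among the kinases, HRI (EIF2AK1, ENSG00000086232.13, chr7:6022247-6059175, - strand) is the one that heme inhibits. It measured 21901, 20564 and 22694 normalized counts in DMSO replicates 1 to 3 and 22029, 20259 and 20882 in Chelator replicates 1 to 3. The groups overlapped, with the highest value in a DMSO library and the lowest in a Chelator library. Means were 21720 ± 1077 and 21057 ± 898 (SD, n = 3 each), and DESeq2 gave a log2 fold change of -0.04 (SE 0.070, adjusted p = 0.680, 95% interval -0.18 to 0.093), a value at 0.00016 with edgeR. The interval did not reach the log2 fold change of any of the other 3 kinases. AIMP2, which overlaps EIF2AK1 on the other strand, had a log2 fold change of -0.24 (adjusted p = 0.00997) at a mean of 2856 counts. Its part in the EIF2AK1 counts was not tested.

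PKR (EIF2AK2, ENSG00000055332.19, chr2:37099210-37157522, - strand) binds double-stranded RNA. It measured 6775, 7812 and 7147 normalized counts in DMSO and 5542, 5212 and 5317 in Chelator. Each Chelator library lay below the lowest DMSO library. EIF2AK2 fell by 26.1%, from 7245 ± 525 to 5357 ± 168 (log2 fold change -0.44, SE 0.079, adjusted p = 2.96e-07). The size of this fall depended on transcript length. The average effective length of the EIF2AK2 transcripts in use was 5832 bases in DMSO and 4432 in Chelator. Without the correction for length the log2 fold change was -0.84. GPATCH11, which overlaps EIF2AK2 on the other strand, had a log2 fold change of -0.28 (adjusted p = 0.0088) at a mean of 2743 counts. Its part in the EIF2AK2 counts was not tested.

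PERK (EIF2AK3, ENSG00000172071.15, chr2:88556741-88691518, - strand), the endoplasmic reticulum kinase, was the 1 kinase that rose. It measured 1352, 1451 and 1455 normalized counts in DMSO and 2009, 1784 and 1951 in Chelator. The Chelator libraries were all above the DMSO libraries. Means were 1419 ± 58.5 and 1915 ± 117, a log2 fold change of 0.43 (SE 0.094, adjusted p = 2.73e-05).

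GCN2 (EIF2AK4, ENSG00000128829.12, chr15:39934115-40035591, + strand), the sensor of uncharged tRNA, had the lowest log2 fold change of the 10 genes with the length correction, while without it EIF2AK2 was lower. It measured 7090, 7352 and 7145 normalized counts in DMSO and 5094, 4231 and 4390 in Chelator. The groups were far apart, with Chelator replicate 1 nearest to DMSO. EIF2AK4 fell by 36.5%, from 7195 ± 138 to 4572 ± 459 (log2 fold change -0.65, SE 0.086, adjusted p = 5.46e-13). Its log2 fold change ranged from -0.74 to -0.60 over 14 other ways of processing.

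Of the mitochondrial relay, the protease OMA1 (ENSG00000162600.12, chr1:58415384-58546802, - strand) fell and its substrate DELE1 rose. OMA1 measured 1408, 1188.5 and 1371 normalized counts in DMSO and 989, 1028 and 1109 in Chelator. The highest Chelator library stayed under the lowest DMSO library, by a small margin. OMA1 fell by 21.2%, from 1323 ± 118 to 1042 ± 61.4 (log2 fold change -0.34, SE 0.11, adjusted p = 0.0065). An antisense noncoding RNA that overlaps OMA1, ENSG00000286918, was also lower, with a log2 fold change of -0.96 (adjusted p = 7.10e-04) at a mean of 155 counts. Whether reads were counted by strand is not given in the sources used here, so reads of OMA1 and this RNA cannot be told apart with certainty.

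DELE1 (ENSG00000081791.9, chr5:141923855-141942047, + strand), which carries the signal from mitochondria to HRI, measured 3037, 2772 and 2837 normalized counts in DMSO and 3520, 3398 and 3267 in Chelator. The groups did not overlap, and the rise was modest. Means were 2882 ± 138 and 3395 ± 126, a log2 fold change of 0.24 (SE 0.080, adjusted p = 0.0108). DELE1 no longer passed without DMSO replicate 3 (log2 fold change 0.22, adjusted p = 0.0507) or with libraries centred on the mean change of all genes (0.17, adjusted p = 0.0873). Its log2 fold change was 0.37 without the length correction and 0.44 over transcripts of at least 1000 bases.

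PPP1R15A (GADD34, ENSG00000087074.9, chr19:48872212-48876059, + strand), the inducible subunit that directs the phosphatase to eIF2alpha, showed the largest change of the 10 genes. It measured 5215, 4533 and 4556 normalized counts in DMSO and 15234, 15837 and 16286 in Chelator. The lowest Chelator library was far above the highest DMSO library. Means were 4768 ± 388 and 15786 ± 528, a log2 fold change of 1.73 (SE 0.079, adjusted p = 9.01e-103). The 14 other ways of processing gave 1.66 to 1.79.

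The constitutive subunit PPP1R15B (CReP, ENSG00000158615.10, chr1:204396492-204411887, - strand) measured 8876, 9070 and 8945 normalized counts in DMSO and 10448, 10429 and 10633 in Chelator. The replicates lay close together and the groups were separate. PPP1R15B rose by 17.2%, from 8964 ± 98.0 to 10504 ± 113 (log2 fold change 0.23, SE 0.062, adjusted p = 8.80e-04).

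The catalytic subunit PPP1CA (ENSG00000172531.16, chr11:67398181-67421183, - strand) measured 27084, 25080 and 27992 normalized counts in DMSO and 27353, 24912 and 26855 in Chelator. The groups overlapped throughout. Means were 26719 ± 1490 and 26374 ± 1290, and the log2 fold change was -0.02 (SE 0.073, adjusted p = 0.880, 95% interval -0.16 to 0.12), a value whose sign turned with edgeR (0.03). PPP1CA shared 19.4% of its 31-base stretches with other genes, among them the overlapping RAD9A, TBC1D10C and CARNS1.

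The adaptor NCK1 (ENSG00000158092.7, chr3:136862208-136951606, + strand) measured 1187, 1118 and 1207 normalized counts in DMSO and 1440, 1368 and 1278 in Chelator. The groups did not overlap, yet the difference missed the threshold. Means were 1171 ± 46.6 and 1362 ± 80.8, a log2 fold change of 0.22 (SE 0.10, adjusted p = 0.0703, 95% interval 0.023 to 0.41). With edgeR it passed (0.26, adjusted p = 0.0357), as it did with TMM scaling (0.26, adjusted p = 0.0184). Leaving out Chelator replicate 3 also let it pass (0.26, adjusted p = 0.0461), while without the length correction the log2 fold change was 0.068. IL20RB, which overlaps NCK1 on the same strand, was higher by a log2 fold change of 2.65 at a mean of 321 counts, and its part in the NCK1 counts was not tested.

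Levels were compared between genes as TPM, which accounts for transcript length. In DMSO the catalytic subunit PPP1CA was the most abundant at 272 ± 12.8 TPM, followed by HRI (EIF2AK1) at 167 ± 9.03 TPM, and these did not overlap each other or any other gene. Next came PPP1R15B at 26.6 ± 2.88, PPP1R15A at 26.2 ± 2.05 and DELE1 at 24.3 ± 1.63 TPM, whose neighbors overlapped. OMA1 at 19.3 ± 0.142, EIF2AK4 at 19.0 ± 2.23 and EIF2AK2 at 18.5 ± 3.15 TPM formed a further group with overlapping neighbors. NCK1 at 11.6 ± 0.675 TPM and EIF2AK3 at 5.44 ± 0.674 TPM were lowest, each apart from its neighbors.

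In Chelator PPP1R15A moved up in the order and EIF2AK4 moved down. At 88.8 ± 4.90 TPM it ranked 3 of 10, apart from its neighbors, above PPP1R15B at 31.8 ± 0.962 TPM and below EIF2AK1 at 165 ± 2.33 TPM. DELE1 (29.2 ± 0.997 TPM) and OMA1 (15.6 ± 1.14 TPM) followed, each apart from its neighbors. EIF2AK2 (13.8 ± 0.0801 TPM), NCK1 (13.8 ± 0.724 TPM) and EIF2AK4 (12.3 ± 0.887 TPM) had overlapping neighbors, so that EIF2AK4, above NCK1 without overlap in DMSO, overlapped it in Chelator, and EIF2AK3 (7.45 ± 0.258 TPM) remained the lowest.

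**Figure D2:**
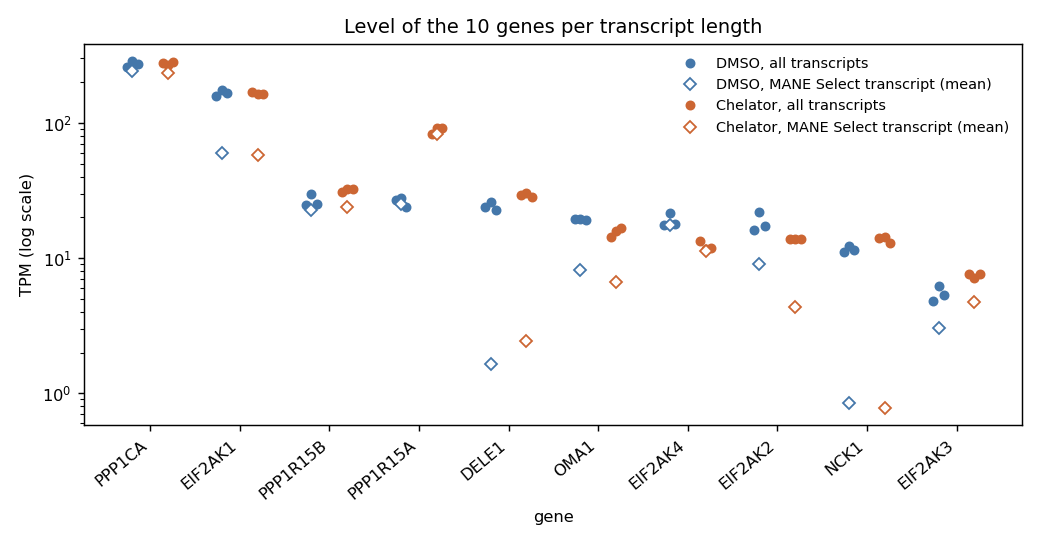
TPM of the 10 genes on a log axis, ordered by the DMSO mean. Filled points are the sum over all transcripts of a gene in each library, and open diamonds are the group mean of the MANE Select transcript alone. PPP1R15A moves from 26.2 to 88.8 TPM, and DELE1 and NCK1 have the widest gaps between circles and diamonds in both groups.

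Which transcripts are summed matters for these levels. With the MANE Select transcript alone (the agreed reference transcript of each gene), EIF2AK1 was at 59.7 TPM in DMSO and 57.8 in Chelator. Its 573-base transcript EIF2AK1-204 took 55.3 ± 3.97% of the TPM in DMSO, while the MANE transcript EIF2AK1-201 held 82.9 to 86.7% of the counts. By that measure PPP1R15A (24.9 TPM in DMSO, 83.2 in Chelator) lay above EIF2AK1 in Chelator. DELE1 was at 1.63 and 2.45 TPM and NCK1 at 0.845 and 0.778 TPM by their MANE transcripts, since other transcripts held most of their TPM.

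The make-up of the kinase mRNA is given as a description. HRI made up 79.6 ± 1.42% of the summed TPM of the 4 kinases in DMSO and 83.1 ± 0.259% in Chelator. The share of PERK was 2.59 ± 0.135% in DMSO and 3.75 ± 0.107% in Chelator. GCN2 went from 9.05 ± 0.451% to 6.17 ± 0.338%, and PKR from 8.77 ± 0.862% to 6.97 ± 0.100%. The shares depended on the transcripts summed. Over the MANE transcripts alone HRI took 67.0% in DMSO and 73.9% in Chelator, and PERK 3.39% and 6.04%. GCN2 took 19.6% and 14.5% by that measure, above PKR at 10.0% and 5.56%, whereas the sums over all transcripts put them close together.

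Ratios of TPM within a library do not depend on library size. The ratio of PPP1R15A to PPP1R15B was 1.09, 0.929 and 0.947 in DMSO and 2.71, 2.82 and 2.85 in Chelator. The mRNAs of the inducible and constitutive subunits were thus about equal in DMSO and unequal in all Chelator libraries. The ratio of EIF2AK3 to EIF2AK4 was 0.286 ± 0.00941 in DMSO and 0.609 ± 0.0361 in Chelator. DELE1 to OMA1 gave 1.26 ± 0.0769 and 1.88 ± 0.177. The values depended on the transcripts summed. Over the MANE transcripts alone DELE1 to OMA1 gave 0.202 ± 0.0144 and 0.372 ± 0.0278, so that DELE1 lay below OMA1, EIF2AK3 to EIF2AK4 gave 0.173 ± 0.0121 and 0.417 ± 0.0210, and PPP1R15A to PPP1R15B gave 1.1 ± 0.0833 and 3.47 ± 0.112. The 3 ratios were chosen after the values of their genes had been seen, so they are given as descriptions with no test.

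Transcript usage, the share of a gene's TPM carried by each of its transcripts, was tested with edgeR. The 10 genes had 113 annotated transcripts. EIF2AK3 was the 1 gene of 10 called at an adjusted p under 0.05 with a share change above 5 percentage points, where the background was 9.22% of 11938 genes. At an unadjusted p under 0.05 it was also the 1 gene of 10, against 2120 of all genes. The call rested on EIF2AK3-218, a transcript singled out after its values were seen, which was at 0 counts throughout DMSO and at 23, 28 and 35 in Chelator and so passed the count filter through the Chelator libraries alone. With this transcript alone left out, and all 6 libraries kept, the adjusted p of EIF2AK3 by edgeR went from 0.0065 to 0.969. The call was also lost at a minimum of 50 counts (adjusted p = 1.00), without Chelator replicate 1 (0.886), 2 (0.879) or 3 (1.00), and without DMSO replicate 2, where the adjusted p was 0.0271 and the share change 4.94 points. By limma, with the transcript kept, the adjusted p was 0.0342. No change of usage among the 10 genes is therefore drawn from this test, and the shares below are descriptions. Fragment length, inferred from the gap between length and effective length of transcripts without counts, moved with the groups. It was 252 to 264 bases in DMSO and 200 to 218 bases in Chelator. Effective length also enters the length-corrected fold changes, TPM levels and ratios above. The part of fragment length in these values and in the transcript shares was not tested.

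The protein-coding transcript EIF2AK3-201 took 61.2, 50.9 and 55.5% of the EIF2AK3 TPM in DMSO and 65.2, 62.3 and 62.5% in Chelator. The groups were separate by about 1 point. The mean share went from 55.9 ± 5.16% to 63.3 ± 1.66%, and that of EIF2AK3-209, for which no coding sequence is annotated, from 15.1 ± 1.60% to 10.9 ± 0.847%, both with separate groups.

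In PKR (EIF2AK2) the 9975-base transcript EIF2AK2-201 took 49.3, 48.5 and 48.2% of the TPM in DMSO and 35.2, 29.6 and 29.4% in Chelator. This was the largest share difference among the 10 genes, with separate groups, but edgeR did not call it (adjusted p = 1.00), nor did limma (0.377), and it passed without DMSO replicate 3 (0.0469). The 1272-base transcript EIF2AK2-204 went from 11.3 ± 3.41% to 20.1 ± 0.258% with separate groups, and the 1533-base EIF2AK2-203 from 18.0 ± 3.42% to 26.0 ± 6.09% with overlapping groups. These shares set the shorter average length given above, and with it the size of the fall of EIF2AK2.

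PPP1R15B-201, the main transcript of CReP, held 88.4, 84.8 and 83.3% of the TPM in DMSO and 77.7, 76.0 and 73.1% in Chelator. The groups did not overlap, and the tools differed in the call, with an adjusted p of 0.431 by edgeR and 0.0293 by limma. PPP1R15B-203, annotated as a target of nonsense-mediated decay, took 9.86 ± 3.32% in DMSO and 15.9 ± 3.66% in Chelator, with overlapping groups. EIF2AK1-204 was at 55.3 ± 3.97% in DMSO and 47.9 ± 4.05% in Chelator (adjusted p = 0.604 by edgeR, 0.0070 by limma).

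PPP1R15A kept a single dominant transcript, with PPP1R15A-201 at 95.0 ± 1.28% in DMSO and 93.8 ± 2.15% in Chelator. EIF2AK4-201 likewise held 92.0 ± 1.01% and 92.4 ± 1.32%. For the leading transcripts of DELE1, OMA1 and NCK1 the groups overlapped. PPP1CA-203 was at 88.3 ± 0.748% and 85.9 ± 0.930%, with separate groups and an adjusted p of 0.762 by edgeR.

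**Figure D3:**
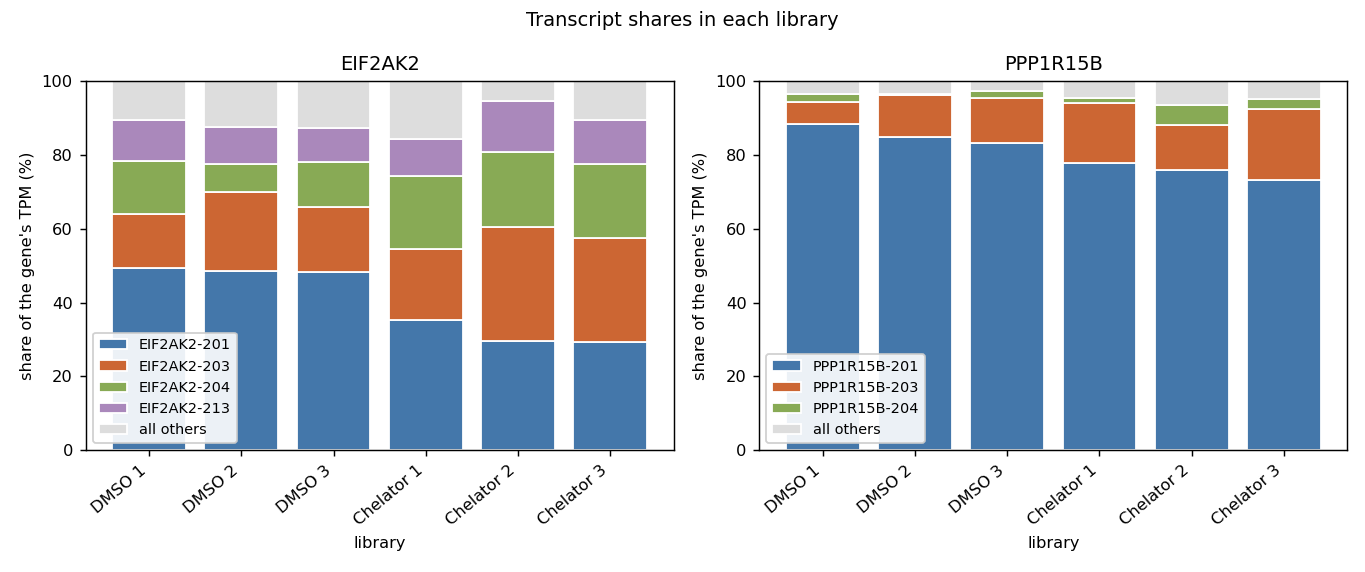
Share of the gene's TPM (percent) carried by the leading transcripts of EIF2AK2 and PPP1R15B in each library, stacked to 100%. EIF2AK2-201 takes 48.2 to 49.3% in DMSO and 29.4 to 35.2% in Chelator, and PPP1R15B-201 takes 83.3 to 88.4% and 73.1 to 77.7%.

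The genes around the 10 were described with 6 lists of 63 genes. Of the 8 subunits of eIF2, the substrate, and of its exchange factor eIF2B, 6 fell, none rose and 2 did not pass, with a median log2 fold change of -0.31. EIF2B3 had a log2 fold change of -0.84 (adjusted p = 9.60e-33) and EIF2B4 one of -0.56 (adjusted p = 7.40e-14), both subunits of eIF2B. EIF2S1, which encodes eIF2alpha itself, went from 16363 to 13258 normalized counts (log2 fold change -0.30, adjusted p = 0.0013), a log2 fold change of -0.48 without the length correction and -0.87 over transcripts of at least 1000 bases.

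Of 8 regulators of the kinases, 4 fell, 2 rose and 2 did not pass (median -0.25). GCN1, the ribosome-bound activator of GCN2, had a log2 fold change of -0.68 (adjusted p = 2.98e-09), beside -0.65 for its partner EIF2AK4. ADAR, which edits double-stranded RNA and so limits PKR, had one of -0.51 (adjusted p = 5.83e-06). The 2 that rose, named after their values were seen, were HSPA5 (0.45, adjusted p = 9.34e-11), the chaperone that holds PERK inactive, and NCK2 (0.42, adjusted p = 3.72e-04), the paralog of NCK1.

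Among 4 partners of the PPP1R15 subunits, 2 rose and 2 fell. The other catalytic subunits of protein phosphatase 1 fell, PPP1CB with a log2 fold change of -0.35 (adjusted p = 0.0011, -0.67 without the length correction) and PPP1CC with -0.24 (adjusted p = 0.0040), beside PPP1CA, which did not pass. ACTG1, an actin that binds the phosphatase complex, rose by 0.65 on the log2 scale (adjusted p = 2.40e-18), as did ACTB by 0.24 (adjusted p = 0.0016), a gene named after its value was seen. Of 16 genes listed as mitochondrial proteases, prohibitins and chaperones, 10 fell, 1 rose and 5 did not pass (median -0.31). The list also held OPA1, PGAM5 and ATAD3A, which are none of these and were among the 10 that fell. The chaperonin HSPD1 (-0.67, adjusted p = 7.78e-16) and the scaffold STOML2 (-0.65, adjusted p = 6.39e-21) were the lowest, and the 1 that rose was LONP1 (0.20, adjusted p = 0.0055), named after its value was seen, the protease of the mitochondrial matrix.

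Downstream in the pathway, all 7 genes listed as factors of the integrated stress response rose, with a median log2 fold change of 1.26. They were transcription factors apart from the pseudokinase TRIB3. Past the fold threshold were 4 of them, beside 8.18% of all genes called higher. ATF4 went from 13627 to 38021 normalized counts (log2 fold change 1.48, adjusted p = 1.30e-85). ATF3 (2.57, adjusted p = 4.06e-98) and DDIT3, which encodes CHOP (2.32, adjusted p = 1.28e-96), rose the most. Over transcripts of at least 1000 bases alone DDIT3 had an adjusted p of 0.0376 and a log2 fold change of 4.93, a value of low precision. Of 20 genes linked to ATF4, 18 rose, none fell and 2 did not pass, with a median of 0.97. Of the 20 genes 9 were past the fold threshold, beside the same 8.18% of all genes. GDF15 (3.58), PHGDH (2.32, adjusted p = 8.76e-200) and DDIT4 (2.32, adjusted p = 2.14e-213) were the leading genes with at least 500 mean counts. The 2 that did not pass were VLDLR and PYCR1, named after their values were seen. Whether ATF4 drove the rises in this list was not tested, and the study also found hypoxia genes enriched after chelation. Over the 6 lists, 30 genes were higher and 22 lower, beside backgrounds of 19.5% and 18.3%. The lists were chosen with earlier results of these data known, and their counts are descriptions.

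**Figure D4:**
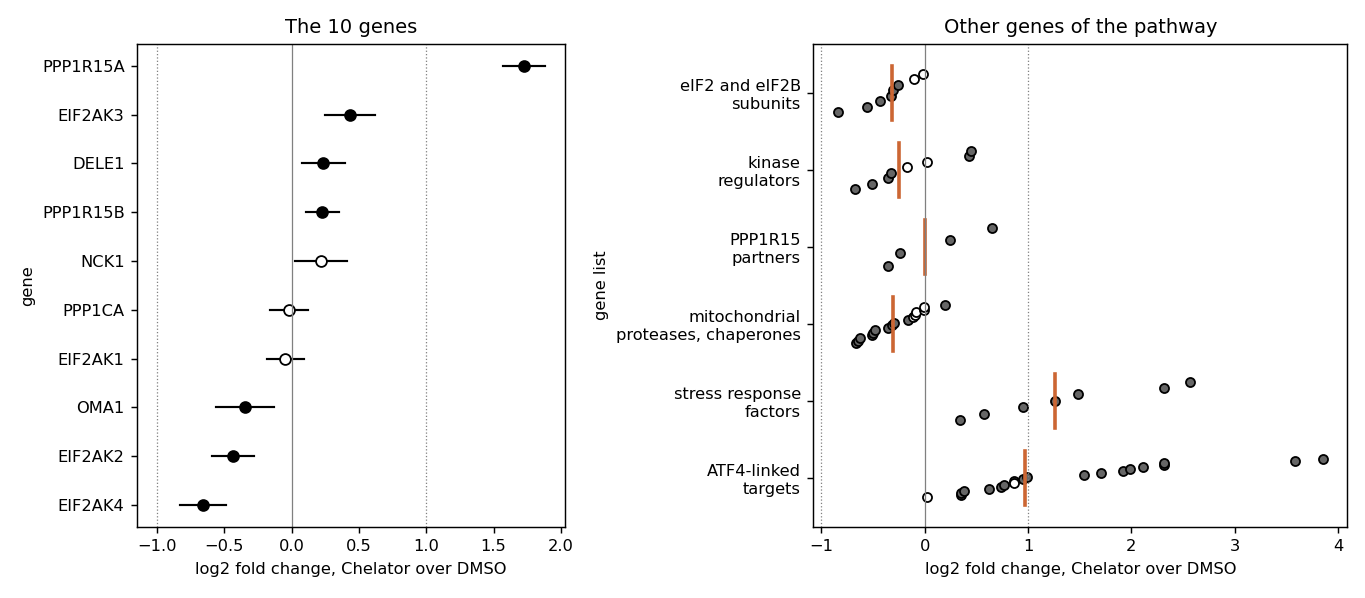
Log2 fold change, Chelator over DMSO, of the 10 genes with 95% intervals (left) and of the 63 genes of the 6 lists (right, orange bars are list medians). Filled points had an adjusted p under 0.05, open points did not, and dotted lines mark an absolute log2 fold change of 1. PPP1R15A (1.73) sits in the range of the stress response factors (0.34 to 2.57), and the other 9 genes lie between -0.65 and 0.43.

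The genes whose pattern over the 6 libraries was most like that of PPP1R15A were sought among 10341 genes with a mean of at least 500 counts, by the Euclidean distance of log2 normalized counts relative to each gene's DMSO mean. The nearest were MAFF, a small basic leucine zipper factor (distance 0.084, log2 fold change 1.71), HSPA6, a stress-induced chaperone (0.11, 1.78), and TNFRSF10B, the death receptor DR5 (0.15, 1.80). Their likeness in fold change and across libraries is what the distance selects, and is given as a description.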

How the data were processed

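Polyadenylated RNA from 6 K562 cultures (3 DMSO, 3 Chelator, as labelled) was sequenced as paired-end reads. The authors quantified transcripts with Salmon 1.10.2. The deposited values are estimated counts and TPM, which the authors' tool derived from those counts and effective transcript lengths. The annotation and strand setting are not given in the sources used here, and strandedness limits overlapping genes. Transcripts were matched to GENCODE v44 (GRCh38): of 252045 transcripts, 433 had no match, and these held at most 0.150% of counts.

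Counts were summed per gene, rounded, kept at a total above 10, and tested with DESeq2 1.42.0 (Wald test, median-ratio size factors, average transcript length offset, Benjamini-Hochberg adjustment over all genes). As in the study's methods, a call needed a log2 fold change above 1 in size at an adjusted p under 0.05. Usage was tested with edgeR 4.0.16 (diffSpliceDGE, Simes; transcripts with at least 10 counts in 3 libraries); limma 3.58.1 was an alternative. Both scripts were tested on simulated data. Libraries held 78615500 to 101094957 counts. Mean ± SD is over 3 libraries. Shared 31-base stretches were counted over annotated transcripts.

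Members and lists were chosen with earlier results of these data known. The text names all 10 genes, and per list at most 3 called genes (mean count at least 500, groups separate) with the largest fold, or else the 2 with the largest fold at adjusted p under 0.05, plus ATF4, EIF2S1, PPP1CB and PPP1CC. Transcripts named are the 2 of largest share change in a called gene and the leading transcript otherwise; EIF2AK2-203, EIF2AK2-204 and PPP1R15B-203 were added after their values were seen. Protein sequences and the promoters of EIF2AK1 and PPP1CA were not used here.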

Additional observations from a re-analysis of the deposited data

How the results depend on the processing

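The 7 genes with an adjusted p under 0.05 kept their direction under all 14 alternatives, and 6 of them, DELE1 being the exception described above, kept their side of the threshold. The log2 fold change of EIF2AK1 became 0.00016 with edgeR and 0.00017 with TMM scaling. That of PPP1CA became 0.026 with edgeR and with TMM scaling, 0.039 without the length correction, 0.013 over transcripts of at least 1000 bases, and -0.066 to 0.021 with 1 library left out. The NCK1-201 share changed by -6.92 to 0.55 points with 1 library left out. With no fold threshold, 7 of the 10 genes, 52 of the 63 list genes and 9260 of all genes were called, against 1, 13 and 2646, and 674 of all genes were called in a test against the fold threshold. For transcript usage limma called 3 of the 10 genes and 3184 of all, against 1 and 1101 with edgeR. A share change above 10 points left 0 and 728, at least 50 counts left 0 of the 10, as did leaving out EIF2AK3-218, and leaving out 1 library left 0 to 2 and 539 to 1063 (539 without Chelator replicate 3, 592 without Chelator replicate 2). Apart from that transcript, the causes were not tested. The median log2 fold change of all genes stayed between -0.053 and 0.068. The transcript length alternative, leaving out EIF2AK3-218, the MANE levels and the ratios were chosen after seeing the data.

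Replicate numbers share no stated culture or day, and same-numbered libraries deviated together with r of -0.075, 0.13 and 0.10, so they were not taken as pairs. With the replicate number as a block 2345 genes were called, and no call among the 10 genes changed (PPP1R15A 1.73, EIF2AK3 0.43).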
